A study of Mus musculus with 40 samples.

Results

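The comparison set J558LuM cells carrying PAX5-P80R (6 arrays) against J558LuM cells carrying wild-type PAX5 (PAX5-WT, 7 arrays), chosen by the group in each sample's title, so that 13 of the 40 arrays of the series enter the difference itself. J558LuM is a mouse plasmacytoma line, an immortal plasma cell line of 1 origin, and all groups are transductions of this line. PAX5-P80R has a change in the paired domain, the part of the protein that contacts DNA. The 7 arrays of cells with the empty vector, named MIR in the labels, show the state without added PAX5, and the 6 arrays with PAX5-Δ2-6, which the labels describe no further, served as a control from the same run of transductions as PAX5-P80R. The remaining 14 arrays carried PAX5-G183S and PAX5-G183V, 7 each. They are compared only where genes were chosen on arrays other than those compared. Their values also enter the batch terms and errors of every fit over all 40 arrays. By its title, the series is about germline PAX5 and susceptibility to pre-B cell leukaemia, and the comparison asks which effects of wild-type PAX5 the paired-domain change loses, keeps or adds. Each array measured total RNA from its own transduction. The p-values therefore reflect how transductions of a single line vary, with each array taken as independent. At some genes the arrays of a construct split by isolation batch. The p-values do not measure how an effect varies between batches or runs of transductions.

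PAX5 is the transcription factor that commits lymphoid progenitors to the B cell lineage. It binds DNA through its paired domain, activates genes of B cell surface receptors and signalling, represses genes of other lineages, and is switched off when a B cell becomes a plasma cell. A plasmacytoma line is therefore a setting in which PAX5 is added to cells with an active plasma cell programme. The arrays matched that label. Xbp1, the driver of the secretory programme, had log2 signals of 13.21, 13.32 and 13.40 (lowest, median, highest) with PAX5-P80R and 13.07, 13.17 and 13.26 with PAX5-WT, while the array medians of these 13 arrays lay between 4.22 and 4.27. The J chain gene Jchain averaged 12.28 with PAX5-P80R and 12.41 with PAX5-WT. Cd79a, a B cell receptor component, stayed near the array median at 4.17, 4.31 and 4.57 with PAX5-P80R and 4.09, 4.16 and 4.44 with PAX5-WT.

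The design parts the groups in more ways than the construct. All PAX5-P80R arrays were on plate 2, and 4 PAX5-WT arrays were on plate 1 and 3 on plate 2. RNA isolation batch 1 held 3 PAX5-P80R arrays (transductions 1 to 3) and 4 PAX5-WT arrays (transductions 36 to 43), and isolation batch 2 held 3 PAX5-P80R arrays (transductions 48 to 52) and 3 PAX5-WT arrays (transductions 61 to 63). In isolation batch 1 the 2 constructs came from separate runs of transduction numbers, so construct and run cannot be told apart there. In isolation batch 2 both lay within numbers 45 to 66. The PAX5-P80R numbers all came before the PAX5-WT numbers, so construct and order cannot be told apart there either. PAX5-Δ2-6 against MIR crosses the same divide in isolation batch 1 (transductions 4 to 6 against 34 to 38). In isolation batch 2 its numbers adjoin (53 to 57 against 58 to 60). Over both batches it had 0 of 17097 genes called in limma at an adjusted p under 0.05 (0.00%). There were 1308 genes at an unadjusted p under 0.05, and the smallest adjusted p was 0.218. The Pax5 probe set had log2 signals of 4.53, 4.95 and 5.41 with PAX5-P80R and 4.36, 4.81 and 5.14 with PAX5-WT, a difference of 0.31 ± 0.17 (SE; limma adjusted p = 0.32), against 4.19, 4.51 and 4.63 with MIR. No source used here says whether this probe set lies within the transduced sequence, so it is no check of the amount of construct.

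Promoter sequences are shown for 4 genes that mark the outcomes described next: Cd36, whose response to wild-type PAX5 was largely absent with PAX5-P80R, Fcgr2b and Ablim1, whose responses were smaller, and Alcam, which was higher with PAX5-P80R than with PAX5-WT or MIR. Each runs 5′ to 3′ on the gene's own strand for 250 bases before and 50 bases after the annotated start in RefSeq on GRCm38.p6, and all 4 genes lie on the minus strand. Capitals mark GCGTGAC read on either strand, the letters at the core of many paired-domain sites of PAX5.
Cd36 (chr5:17835847-17836146): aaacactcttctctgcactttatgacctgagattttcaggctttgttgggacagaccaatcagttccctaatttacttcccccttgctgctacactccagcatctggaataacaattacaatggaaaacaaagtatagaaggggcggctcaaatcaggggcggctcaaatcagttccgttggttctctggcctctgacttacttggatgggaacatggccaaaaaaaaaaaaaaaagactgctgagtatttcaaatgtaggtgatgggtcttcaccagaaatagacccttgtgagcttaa
Fcgr2b (chr1:170976022-170976321): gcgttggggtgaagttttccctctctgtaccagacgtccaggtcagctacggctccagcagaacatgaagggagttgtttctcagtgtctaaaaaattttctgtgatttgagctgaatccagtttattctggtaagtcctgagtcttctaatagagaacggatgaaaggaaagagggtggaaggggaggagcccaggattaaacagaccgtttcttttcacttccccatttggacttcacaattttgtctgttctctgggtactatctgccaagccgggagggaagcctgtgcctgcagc
Ablim1, start 1 of 5 (chr19:57274619-57274918): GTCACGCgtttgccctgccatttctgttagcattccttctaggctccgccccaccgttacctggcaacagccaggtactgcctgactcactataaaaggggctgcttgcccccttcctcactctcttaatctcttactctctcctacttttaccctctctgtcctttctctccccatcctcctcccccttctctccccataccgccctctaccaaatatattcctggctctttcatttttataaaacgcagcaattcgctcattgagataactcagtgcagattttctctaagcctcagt
Alcam (chr16:52453032-52453331): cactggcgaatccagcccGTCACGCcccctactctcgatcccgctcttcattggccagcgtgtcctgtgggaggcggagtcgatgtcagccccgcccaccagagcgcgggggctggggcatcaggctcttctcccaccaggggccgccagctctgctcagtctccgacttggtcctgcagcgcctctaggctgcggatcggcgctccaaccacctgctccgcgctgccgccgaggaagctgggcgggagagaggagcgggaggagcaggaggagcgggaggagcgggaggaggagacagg
The Ablim1 window holds the letters at its first base, 250 bases before the start, and the Alcam window 232 bases before the start, both as GTCACGC, the same letters on the other strand. The windows of the other 4 Ablim1 starts, and those of Cd36 and Fcgr2b, do not hold them. Windows of Mycn, Irgm1 and Ackr3, which are described below, were also read and do not hold them. Ackr3 rose more with PAX5-P80R than Alcam did. The genes shown are therefore no measure of how often the letters occur in a class. Over all 32851 promoters of this length 687 (2.09%) hold GCGTGAC on either strand, and of 13605 measured genes with a promoter 484 (3.56%) hold it in at least 1. Among the genes whose response was lost the count was 10 of 277 (3.61%), among those kept 9 of 171 (5.26%), among those reduced 2 of 28 (7.14%), and among those gained 13 of 210 (6.19%). The related letters GCATGAC stood in 274 of the 13605 genes (2.01%), and in 4 of 277 lost, 3 of 171 kept, 2 of 28 reduced and 4 of 210 gained genes. These are matches of letters and not measured sites, and the windows cover no enhancer.

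PAX5-P80R cells differed from PAX5-WT cells at many genes, and the largest differences were lower with PAX5-P80R. Of 17097 genes 1078 (6.31%) were called in limma at an adjusted p under 0.05, 457 higher (2.67%) and 621 lower (3.63%) with PAX5-P80R. The sizes ran from 0.12 to 5.67 on the log2 scale, where 1 unit is a 2-fold change, with a median of 0.31. At least 1.5-fold differences numbered 118 (0.690%), 40 higher (0.234%) and 78 lower (0.456%). The split into higher and lower depended on the scaling, since 596 genes were higher and 473 lower once the arrays were centred on their medians, and 556 were higher and 585 lower after a further quantile normalization. All 6 PAX5-P80R arrays lay above all 7 PAX5-WT arrays at 172 genes (1.01%) and below them at 199 genes (1.16%), 371 in all (2.17%). The genes next to the threshold were Erp29, which was called with a difference of 0.17 (adjusted p = 0.0498), and Gm7008, which was not with a difference of -0.35 (adjusted p = 0.0503).

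Surface receptors that wild-type PAX5 switched on carried the largest losses. Cd36, a scavenger receptor that takes up fatty acids, had signals of 3.76, 4.68 and 5.73 with PAX5-P80R, 9.86, 10.37 and 10.65 with PAX5-WT and 3.56, 3.71 and 5.89 with MIR. No PAX5-P80R array reached any PAX5-WT array, and the difference was -5.67 ± 0.31 (SE, n = 6 and 7; adjusted p = 3.2e-16). The PAX5-P80R arrays themselves fell apart by isolation batch, with Cd36 at 3.76 to 3.85 in batch 1 and 5.51 to 5.73 in batch 2. Against MIR the PAX5-P80R difference for Cd36 was 0.64 ± 0.31 (adjusted p = 0.29), which became 1.04 (adjusted p = 0.02) without MIR replicate 7, the array at 5.89, so that Cd36 then counted as reduced and not lost. Against PAX5-Δ2-6 the PAX5-P80R difference for Cd36 was called, at 1.03 (adjusted p = 0.043), or 16.3% of the PAX5-WT effect.

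Ms4a1, which encodes the B cell antigen CD20, had signals of 3.54, 3.89 and 4.32 with PAX5-P80R, 8.49, 9.23 and 9.73 with PAX5-WT and 3.23, 3.86 and 4.08 with MIR. The PAX5-P80R arrays lay with the MIR arrays, and the difference from PAX5-WT was -5.12 ± 0.31 (SE; adjusted p = 1.4e-14), -5.83 in isolation batch 1 and -4.21 in isolation batch 2. The PAX5-P80R effect against MIR was 0.17 ± 0.31 (adjusted p = 0.87), which is 3.18% of the 5.29 that PAX5-WT gave. Siglecg, an inhibitory sialic acid receptor of B cells, followed the same pattern with 4.49, 4.69 and 5.49 with PAX5-P80R, 7.02, 7.27 and 7.79 with PAX5-WT and 4.45, 4.99 and 5.29 with MIR, a PAX5-P80R minus PAX5-WT difference of -2.65 ± 0.21 (adjusted p = 1.2e-11). Against PAX5-Δ2-6, which shares the transduction run with PAX5-P80R, the differences were 0.20 (adjusted p = 0.87) for Ms4a1 and 0.17 (adjusted p = 0.81) for Siglecg.

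Fcgr2b, whose product is the Fc receptor that dampens B cell activation, kept a part of its response. Its signals were 5.34, 5.92 and 6.42 with PAX5-P80R, 8.75, 9.60 and 10.13 with PAX5-WT and 4.12, 4.36 and 5.58 with MIR. The difference from PAX5-WT was -3.47 ± 0.30 (SE; adjusted p = 1.9e-10), -4.21 in isolation batch 1 and -2.58 in isolation batch 2, and PAX5-P80R was still higher than MIR by 1.39 ± 0.30 (adjusted p = 0.0035), or 28.6% of the PAX5-WT effect. Set against PAX5-Δ2-6 the PAX5-P80R effect was 1.46 (adjusted p = 0.0014). The 4 probe sets of Fcgr2b gave differences from -3.47 to -2.53.

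Slamf6 and P2ry10 were also switched on by PAX5-WT and not by PAX5-P80R, with levels in PAX5-WT that depended on the isolation batch. Slamf6, a SLAM family receptor, had 4.70, 5.06 and 5.32 with PAX5-P80R, and with PAX5-WT it had 6.25 to 6.96 in isolation batch 1 and 9.17 to 9.65 in isolation batch 2, against 4.97, 5.07 and 5.37 with MIR. The differences for Slamf6 were -1.46 in batch 1 and -4.26 in batch 2, and -2.63 ± 0.40 over both (adjusted p = 2.3e-05). P2ry10, a G protein-coupled receptor of lymphocytes, had 2.88, 3.15 and 3.38 with PAX5-P80R and 3.56, 4.55 and 6.83 with PAX5-WT, a difference of -2.05 ± 0.57 (adjusted p = 0.023), which was -1.72 (adjusted p = 0.0983) without PAX5-WT replicate 7. It was -1.16 in batch 1 (adjusted p = 0.081) and -3.40 in batch 2 (adjusted p = 3.9e-07). Camk2d, a calcium-dependent kinase, differed from PAX5-WT by -1.63 ± 0.13, Lair1, an inhibitory collagen receptor, by -1.12 ± 0.19, and Zbtb32, a zinc finger repressor of B cells, by -1.13 ± 0.17, all with no call against MIR. The adjusted p-values of these 3 were 4.3e-11, 8.6e-05 and 1.3e-05. Over all their probe sets the differences ran from -2.63 to 0.01 for Slamf6 and from -2.13 to -0.07 for Camk2d, and none was called the opposite way. By isolation batch the difference was -1.95 in batch 1 and -1.19 in batch 2 for Camk2d, and -0.64 in batch 1 and -1.73 in batch 2 for Lair1.

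**Figure D1:**
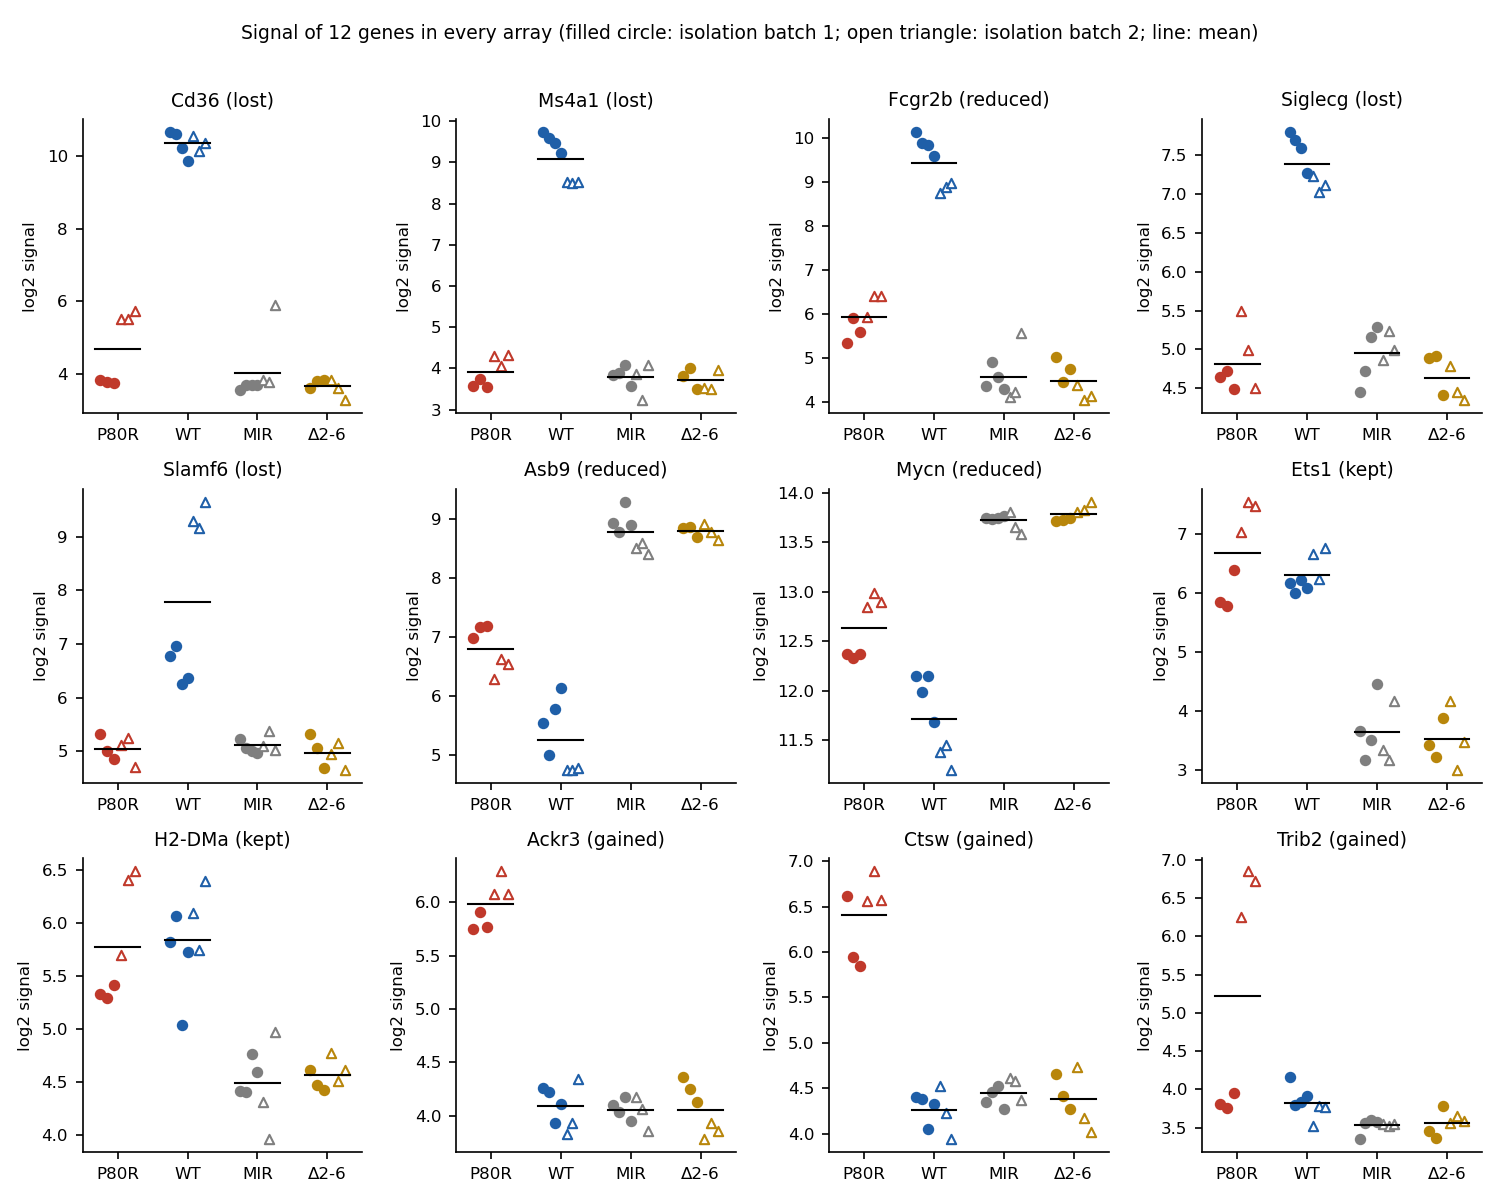
Log2 signal of 12 genes in every array of PAX5-P80R, PAX5-WT, MIR and PAX5-Δ2-6, with filled circles for isolation batch 1, open triangles for isolation batch 2 and a line at each group mean. PAX5-P80R lies near MIR for Ms4a1, between MIR and PAX5-WT for Asb9 and Mycn, with PAX5-WT for Ets1, and above all PAX5-WT arrays for Ackr3, while Trib2 is high in the 3 PAX5-P80R arrays of isolation batch 2 only.

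The 1099 genes called between PAX5-WT and MIR (6.43% of all genes, with 613 higher, 3.59%, and 486 lower, 2.84%, in PAX5-WT) were sorted by 3 calls, PAX5-P80R against MIR, PAX5-P80R against PAX5-WT, and PAX5-WT against MIR. PAX5-P80R against MIR itself called 807 genes (4.72%), 385 higher (2.25%) and 422 lower (2.47%). A response was lost at 346 genes (2.02% of all genes, 31.5% of the 1099), where PAX5-P80R differed from PAX5-WT in the direction opposite to the wild-type effect and not from MIR. It was kept at 212 genes (1.24%, or 19.3% of the 1099), where both constructs moved the gene the same way against MIR and did not differ by call. It was reduced at 31 genes (0.181%), reversed at 14 (0.0819%) and enhanced at 13 (0.0760%), and 483 genes (43.9% of the 1099) met no rule. A further 257 genes (1.5%) were gained, that is moved by PAX5-P80R against both MIR and PAX5-WT in 1 direction with no call for PAX5-WT. The 3 comparisons share arrays, so these counts describe the sorting and are not tests.

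The share of lost responses was larger among genes that PAX5-WT raised. Of the 613 raised genes 213 (34.7%) were lost and 86 (14%) kept, and of the 486 lowered genes 133 (27.4%) were lost and 126 (25.9%) kept. Among the 145 genes that PAX5-WT moved at least 1.5-fold, 104 were raised, of which 50 (48.1%) were lost, 18 (17.3%) reduced and 23 (22.1%) kept. Of the 41 lowered ones 11 (26.8%) were lost, 5 (12.2%) reduced and 18 (43.9%) kept. The difference between raised and lowered genes was not tested, and the number of raised and lowered genes moved with the scaling, to 445 raised and 713 lowered after centring.

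PAX5-P80R against PAX5-Δ2-6 shares no array with PAX5-WT against MIR, though the fit's batch terms and errors are common to both. It called 565 genes (3.30%), 333 higher (1.95%) and 232 lower (1.36%). Of the 613 genes that PAX5-WT raised over MIR, 121 (19.7%) were higher in PAX5-P80R than in PAX5-Δ2-6 and 2 were lower, against the 1.95% higher over all genes. Of the 486 genes that PAX5-WT lowered, 97 (20%) were lower and 3 higher, against the 1.36% lower over all genes. Of the 346 lost genes 14 were called in that comparison, of the 212 kept genes 131, and of the 257 gained genes 141, but the classes were built with the same PAX5-P80R arrays, so these 3 counts are descriptions. The median PAX5-P80R minus PAX5-Δ2-6 difference was 0.05 over the 213 raised genes that were lost, whose median PAX5-WT effect was 0.36, and 0.32 over the 86 raised genes that were kept, whose median PAX5-WT effect was 0.34.

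**Figure D2:**
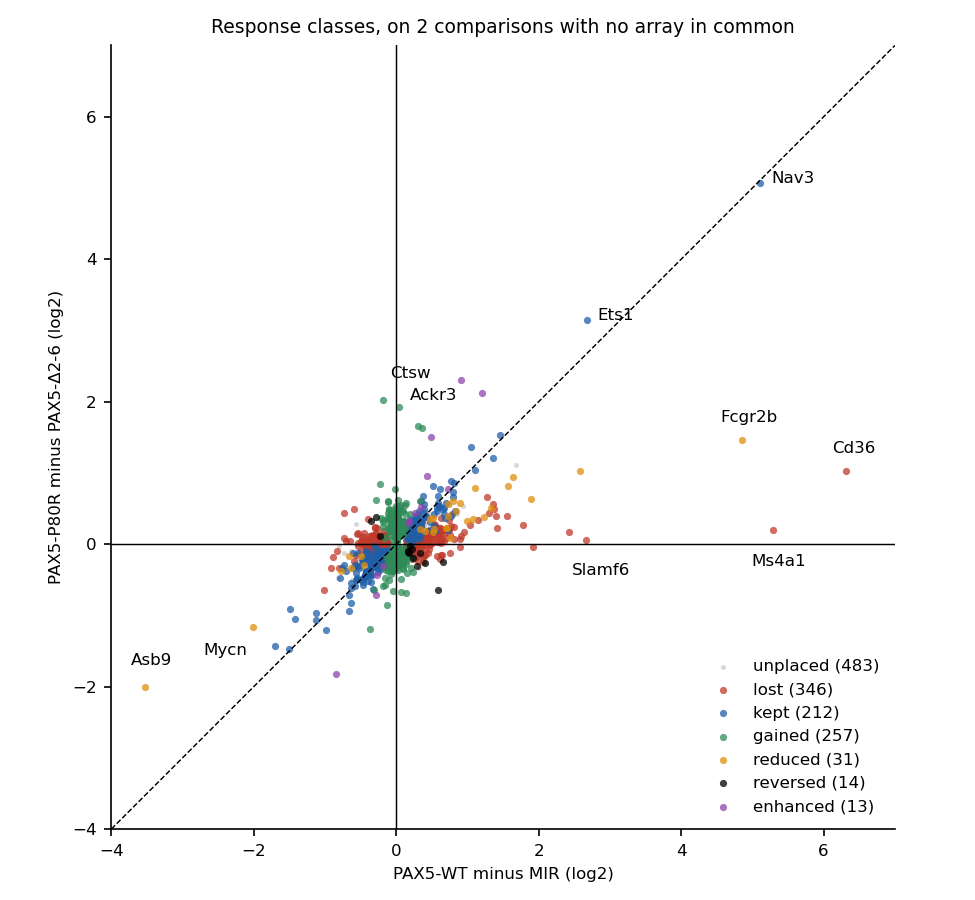
PAX5-WT minus MIR (x axis, log2) against PAX5-P80R minus PAX5-Δ2-6 (y axis, log2) for the 1099 genes of the wild-type response and the 257 gained genes, coloured by class, with a dashed line of equal effect. Nav3 and Ets1 lie near the dashed line, Cd36 at 1.03 and Ms4a1 at 0.20 on the y axis lie far below it, and Ackr3 at 1.93 and Ctsw at 2.03 lie near the vertical line at 0.

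A second choice of genes came from contrasts with no PAX5-WT or PAX5-P80R group, though the fit's batch terms and errors drew on all arrays. Of 631 genes raised by PAX5-G183S against MIR, 219 (34.7%) were lower in PAX5-P80R than in PAX5-WT and 12 were higher, where 3.63% of all genes were lower. Of 415 genes lowered by PAX5-G183S, 106 (25.5%) were higher in PAX5-P80R than in PAX5-WT and 7 were lower, where 2.67% of all genes were higher. With PAX5-G183V, 188 of 963 raised genes (19.5%) were lower in PAX5-P80R than in PAX5-WT and 31 were higher, and 84 of 623 lowered genes (13.5%) were higher and 30 were lower. PAX5-G183S against MIR called 6.12% of all genes (3.69% higher and 2.43% lower) and PAX5-G183V against MIR 9.28% (5.63% higher and 3.64% lower).

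Other reduced responses included a ubiquitin ligase adaptor, a growth regulator and cytoskeletal and signalling genes. Asb9, a substrate adaptor of a ubiquitin ligase, was strongly lowered by PAX5-WT and less so by PAX5-P80R, with signals of 6.29, 6.80 and 7.18 with PAX5-P80R, 4.75, 5.00 and 6.13 with PAX5-WT and 8.41, 8.78 and 9.29 with MIR. The 3 groups did not overlap, and PAX5-P80R stood at 57.0% of the wild-type effect, 1.52 ± 0.17 above PAX5-WT (SE; adjusted p = 4.9e-08). Mycn, a growth-promoting transcription factor of the MYC family, had 12.33, 12.61 and 12.99 with PAX5-P80R, 11.20, 11.68 and 12.15 with PAX5-WT and 13.58, 13.75 and 13.81 with MIR. Here too the groups did not overlap, and the difference from PAX5-WT was 0.98 ± 0.15 (adjusted p = 3.0e-05), 0.43 in isolation batch 1 and 1.65 in isolation batch 2. The other probe sets of Mycn differed less, the lowest by -0.11.

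Ablim1, an actin-binding protein, had 5.70, 6.17 and 6.77 with PAX5-P80R, 7.22, 7.66 and 8.13 with PAX5-WT and 4.86, 5.14 and 5.28 with MIR, again 3 separate groups, with a PAX5-P80R minus PAX5-WT difference of -1.41 ± 0.23 (SE; adjusted p = 5.4e-05). It was -1.88 in isolation batch 1 and -0.77 in isolation batch 2. Its other probe sets differed less, the smallest difference being -0.02. Traf5, a signalling adaptor of TNF receptors, reached 50.2% of the wild-type effect, Mgarp, a mitochondrial protein, 30.6%, Rasgrf2, an exchange factor for RAS, 36.2%, and Flt3, a growth factor receptor of early progenitors, 51.5%. Flt3 is listed among PAX5-repressed genes from textbook knowledge, yet PAX5-P80R raised it by 0.69 and PAX5-WT by 1.33 over MIR (adjusted p = 0.0022 and 8.9e-10).

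The kept responses included the transcription factor Ets1 and the cytoskeletal gene Nav3. Ets1 had 5.78, 6.71 and 7.55 with PAX5-P80R, 6.00, 6.23 and 6.76 with PAX5-WT and 3.16, 3.50 and 4.45 with MIR. The PAX5-P80R and PAX5-WT arrays overlapped and all lay above all MIR arrays. The difference was 0.19 ± 0.22 (SE; adjusted p = 0.73, 95% interval -0.26 to 0.64), against an effect of PAX5-P80R over MIR of 2.87 ± 0.22 (adjusted p = 1.7e-11). Over the 4 probe sets of Ets1 the differences ran from 0.19 to 0.55, and 1 was called, higher with PAX5-P80R than with PAX5-WT. Nav3, a microtubule-associated protein, had 8.44, 9.13 and 9.69 with PAX5-P80R, 8.43, 8.84 and 10.09 with PAX5-WT and 3.84, 4.00 and 4.53 with MIR.

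The pooled Nav3 difference of -0.12 ± 0.41 (SE; adjusted p = 0.92) joined batches that went opposite ways. In isolation batch 1 Nav3 stood at 9.54 to 9.69 with PAX5-P80R and 8.43 to 8.84 with PAX5-WT, a difference of 1.15 in that batch's own fit (adjusted p = 0.0001). In isolation batch 2 Nav3 stood at 8.44 to 8.71 with PAX5-P80R and 9.99 to 10.09 with PAX5-WT, a difference of -1.77 (adjusted p = 0.012). Both constructs raised Nav3 over MIR in both batches, so the response itself was kept while its size relative to wild type depended on the batch.

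H2-DMa, a chaperone that loads MHC class II, had 5.29, 5.56 and 6.49 with PAX5-P80R, 5.04, 5.82 and 6.40 with PAX5-WT and 3.96, 4.41 and 4.97 with MIR, and kept 88.6% of the wild-type effect with a 95% interval of the difference from -0.51 to 0.21. Plek, a substrate of protein kinase C, differed between the constructs by 0.13 (95% interval -0.38 to 0.64) after an increase over MIR of 1.58 with PAX5-P80R and 1.45 with PAX5-WT. Lowered genes that were kept included Spag6, a sperm axoneme protein, B3galnt1, a glycosyltransferase, Il13ra1, a receptor chain for interleukin 13, and Emp2, a membrane protein, at -1.89, -1.65, -1.07 and -1.07 with PAX5-P80R against MIR and -1.70, -1.50, -1.49 and -1.42 with PAX5-WT against MIR. The absence of a call does not show equal levels. Among the 212 kept genes the 95% interval of the difference stayed short of a loss of 50% of the estimated wild-type effect at 134. It lay within 1.5-fold at 204, with a median distance of 0.16 between the estimate and either end. The kept genes were chosen because this same difference was not called, so both counts were in part fixed by the choice. The error of the wild-type effect itself did not enter the mark of 50%.

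Gains of PAX5-P80R were led by a chemokine receptor and a protease. Ackr3, an atypical receptor that scavenges the chemokine CXCL12, had 5.75, 5.99 and 6.29 with PAX5-P80R, 3.83, 4.11 and 4.34 with PAX5-WT and 3.86, 4.06 and 4.17 with MIR. All PAX5-P80R arrays lay above all PAX5-WT and MIR arrays, with a difference from PAX5-WT of 1.88 ± 0.10 (SE; adjusted p = 3.2e-16), 1.66 in isolation batch 1 and 2.09 in isolation batch 2, and of 1.93 from PAX5-Δ2-6 (adjusted p = 4.4e-17). Ctsw, a cysteine protease known from cytotoxic lymphocytes, had 5.85, 6.57 and 6.89 with PAX5-P80R, 3.94, 4.33 and 4.52 with PAX5-WT and 4.27, 4.46 and 4.61 with MIR, and was higher by 2.18 ± 0.14 (adjusted p = 5.0e-14) than with PAX5-WT. Both genes were near the array median without PAX5-P80R.

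Trib2, a pseudokinase, was also placed among the gained genes, but its rise was seen in 1 isolation batch only. Trib2 stood at 3.75 to 3.95 with PAX5-P80R in isolation batch 1 and at 6.25 to 6.85 in isolation batch 2, and at 3.52 to 4.16 in all PAX5-WT arrays. Its pooled difference was 1.40 ± 0.33 (SE; adjusted p = 0.0051), with -0.05 in isolation batch 1 and 2.97 in isolation batch 2, and its other probe set gave 0.21. H2-Aa, an MHC class II chain, split the same arrays, with 4.13 to 4.36 in the PAX5-P80R arrays of isolation batch 1 and 6.72 to 7.34 in those of isolation batch 2, against 4.57 to 5.59 in the PAX5-WT arrays. Its pooled difference of 0.68 ± 0.33 was not called (adjusted p = 0.26).

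Further gains ran both ways. Pip5k1b, a lipid kinase, was higher than with PAX5-WT by 1.19 ± 0.19 (adjusted p = 4.1e-05), Dync1i1, a dynein chain, by 1.09 ± 0.08 (adjusted p = 1.2e-11), Alcam, an adhesion molecule of activated leukocytes, by 1.12 ± 0.20 (adjusted p = 0.00019), and Tmem213, a membrane protein, by 0.95 ± 0.15 (adjusted p = 3.7e-05). The gain of Alcam was called in isolation batch 2 (1.93, adjusted p = 6.8e-10) and not in isolation batch 1 (0.47, adjusted p = 0.093), and Pip5k1b stood at 0.64 in batch 1 and 1.73 in batch 2. Alcam differed from PAX5-Δ2-6 by 0.62 (adjusted p = 0.069), so its gain was not called against the control of the same run. Aff3, a nuclear protein of B cells, fell to 6.90, 7.06 and 7.28 with PAX5-P80R, against 7.46, 7.64 and 8.14 with PAX5-WT and 7.41, 7.60 and 8.06 with MIR (difference from PAX5-WT -0.72 ± 0.08, adjusted p = 3.9e-08). Rell1, a TNF receptor relative, and Rbms1, an RNA-binding protein, fell as well, with differences from PAX5-WT of -0.98 and -0.91 (adjusted p = 1.1e-05 and 0.00033). The fall of Rbms1 was called in isolation batch 2 (-1.61, adjusted p = 3.2e-12) and not in isolation batch 1 (-0.24, adjusted p = 0.22), while Rell1 stood at -0.51 in batch 1 and -1.51 in batch 2.

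Of the 14 reversed genes, Id3, an inhibitor of E proteins, was lowered against MIR by PAX5-P80R (-0.75, adjusted p = 0.025) and raised by PAX5-WT (0.59, adjusted p = 0.045). Its signals were 5.67, 6.31 and 6.83 with PAX5-P80R, 6.99, 7.91 and 8.26 with PAX5-WT and 6.53, 7.22 and 7.53 with MIR. The fall against PAX5-WT of -1.34 ± 0.21 (SE; adjusted p = 2.8e-05) was -1.29 in isolation batch 1 and -1.27 in isolation batch 2, but the placement as reversed held in 6 of 20 fits that each left out 1 array. Npc1, which carries cholesterol out of lysosomes, went the other way, at 8.90, 9.18 and 9.46 with PAX5-P80R, 8.17, 8.47 and 8.55 with PAX5-WT and 8.60, 8.83 and 8.86 with MIR, and Lipa, the lysosomal lipase, had differences from MIR of -0.38 with PAX5-P80R and 0.29 with PAX5-WT. Rb1, a brake on the cell cycle, differed from MIR by -0.40 with PAX5-P80R and 0.34 with PAX5-WT, and Apobec1, a cytidine deaminase, by -0.30 with PAX5-P80R and 0.41 with PAX5-WT. In the fit of isolation batch 1 the PAX5-P80R difference from MIR was not called for Npc1, Lipa, Rb1 or Apobec1. It was 0.22, -0.21, -0.17 and 0.02 there (adjusted p = 0.36, 0.33, 0.5 and 0.95). In the fit of isolation batch 2 it was 0.60, -0.55, -0.67 and -0.67 (adjusted p = 0.0003, 0.014, 0.0016 and 0.0016). Against PAX5-Δ2-6, PAX5-P80R was called at 3 of the 14 reversed genes. Leaving out 1 array left 4 to 17 reversed genes, the fewest without MIR replicate 7.

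Among the 13 enhanced genes Ifitm3, an antiviral membrane protein, had 8.85, 9.31 and 9.54 with PAX5-P80R, 6.88, 7.70 and 8.70 with PAX5-WT and 5.75, 7.28 and 7.45 with MIR. PAX5-P80R exceeded PAX5-WT by 1.61 ± 0.27 (SE; adjusted p = 0.00011), 0.84 in isolation batch 1 and 2.56 in isolation batch 2. Ipmk, an inositol phosphate kinase, and Ifi44l, an interferon-induced gene, were higher than with PAX5-WT by 1.16 ± 0.15 and 1.07 ± 0.23 (adjusted p = 1.3e-06 and 0.0018), with Ipmk at 0.55 in isolation batch 1 and 1.86 in isolation batch 2. Klra17, a Ly49-family receptor, was lowered further, with a difference from PAX5-WT of -0.77 ± 0.14 (adjusted p = 0.00044), -0.31 in isolation batch 1 and -1.23 in isolation batch 2.

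Gene lists written from textbook knowledge were set beside the share of all genes called, 6.31% (2.67% higher and 3.63% lower), and the median difference of all genes, 0.00. Of the 9836 genes whose mean signal exceeded the median of all probe sets, 989 were called. The 6.31% is therefore a low mark for lists of well-expressed genes. In the list of plasma cell identity genes 5 of 16 measured members (31.2%) rose with PAX5-P80R against PAX5-WT and 0 fell, with a list median of 0.09. The risers were Ly6c1 (0.67 ± 0.09), a surface antigen of plasma cells, Derl3 (0.40 ± 0.12) and Fkbp11 (0.24 ± 0.06), which act in folding and clearance of secreted proteins, Xbp1 (0.20 ± 0.04) and Irf4 (0.17 ± 0.05), a transcription factor of plasma cells, with adjusted p-values of 7.0e-06, 0.031, 0.0072, 0.00082 and 0.035. Against MIR, Ly6c1 and Xbp1 differed by -0.26 (adjusted p = 0.13) and 0.06 (adjusted p = 0.47) with PAX5-P80R and by -0.92 and -0.14 with PAX5-WT, where both fell. Prdm1, which encodes the plasma cell regulator BLIMP1, had a difference of 0.12 (adjusted p = 0.25). In fits that each left out 1 array, Irf4 lost its call in 7 (highest adjusted p = 0.128) and Derl3 in 5 (highest adjusted p = 0.0940).

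Of the PAX5-repressed genes 6 of 25 rose with PAX5-P80R against PAX5-WT and 1, Flt3, fell (list median 0.03). Ly6d (0.77 ± 0.12), a lymphoid surface antigen, Grap2 (0.59 ± 0.11), a T cell adaptor, Notch1 (0.36 ± 0.09), the receptor of the T cell fate, and Cd44 (0.33 ± 0.08), an adhesion receptor, rose with Xbp1 and Fkbp11, which the plasma cell list also holds. Of the PAX5-activated genes of B cells 3 of 25 fell (Siglecg, Slamf6 and Id3) and 2 rose (Mycn and Irf4), with a median of -0.02. Ebf1, Cr2, Blnk and Cd79a of that list were not called, at -0.02, -0.10, -0.01 and 0.11. Spib, an ETS factor of B cells, differed from MIR by 1.04 with PAX5-P80R (adjusted p = 0.051) and by 1.68 with PAX5-WT (adjusted p = 7.6e-05), and between the constructs by -0.64 (adjusted p = 0.27), so it met no class.

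Most members of the receptor, signalling and cytoskeletal lists were not called. Inhibitory receptors and phosphatases had 0 members higher and 3 of 16 lower (Fcgr2b, Siglecg and Lair1), surface antigens and SLAM receptors 0 higher and 4 of 19 lower (Ms4a1, Slamf6, Cd52 and Cd180), and cytoskeleton genes 0 higher and 3 of 19 lower (Camk2d, Ablim1 and Fhod3). The shares lower were 18.8%, 21.1% and 15.8%, against 3.63% of all genes. In B cell receptor signalling 3 of 26 fell, Sh3bp5 (-0.51 ± 0.12), Btk (-0.24 ± 0.07) and Plcg2 (-0.19 ± 0.05), and Cd81 (0.21 ± 0.04), a tetraspanin, rose. Btk lost its call without PAX5-P80R replicate 4 or PAX5-WT replicate 4 (highest adjusted p = 0.119), and Plcg2 without PAX5-P80R replicate 4, 5 or 6 (highest adjusted p = 0.0656). B lineage transcription factors had 3 of 23 lower (Id3, Aff3 and Tcf12) and Irf4 higher. Fatty acid and lipid genes had 1 of 17 lower, Cd36 alone. The medians of these 6 lists lay between -0.07 and 0.05, close to the 0.00 of all genes.

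Adhesion genes went the other way, with 3 of 17 higher (17.6%) and 0 lower, where 2.67% of all genes were higher. Itga4, Itgav and Cd44, which encode integrin chains and a matrix receptor, rose by 0.69 ± 0.14, 0.37 ± 0.05 and 0.33 ± 0.08 (adjusted p = 0.0009, 4.0e-07 and 0.0064), and all 3 fell with PAX5-WT against MIR, with differences of -1.02, -0.29 and -0.40. In the cell cycle list 3 of 31 rose (Ccnd3, Aurka and Rrm2, by 0.27, 0.22 and 0.21) and 0 fell. That is 9.68% called, against 6.31% of all genes. In the unfolded protein response and secretion list 4 of 25 rose, among them Pdia4 (0.34 ± 0.06), and Atf6 fell (-0.27 ± 0.08). Pmaip1, which encodes the pro-apoptotic NOXA, rose by 0.74 ± 0.12 (adjusted p = 8.4e-05), while Bcl2 and Bcl2l11, an inhibitor and a promoter of apoptosis, fell with differences of -0.49 ± 0.09 and -0.42 ± 0.13 (adjusted p = 0.00036 and 0.048). Of these, Bcl2l11 lost its call in 15 of 20 fits without 1 array, Atf6 in 6 and Ccnd3 in 4.

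MHC class II genes, which present antigen to T cells, rose against MIR in part, with both constructs. Against MIR 6 of 17 rose with PAX5-P80R (H2-Aa 1.46, H2-DMa 1.20, Cd74 0.96, H2-Ea 0.78, H2-Ab1 0.68 and H2-Eb1 0.38) and 1 fell (Rfxank, a class II regulator, -0.42), where 2.25% of all genes rose and 2.47% fell, and 5 of 17 rose with PAX5-WT, where 3.59% of all genes rose. The H2-Aa difference of PAX5-P80R from MIR was 0.16 (adjusted p = 0.63) in the fit of isolation batch 1 and 2.78 (adjusted p = 2.3e-08) in that of isolation batch 2. For H2-Eb1 it was 0.19 (adjusted p = 0.29) in batch 1 and 0.60 (adjusted p = 0.0011) in batch 2. H2-DMa was called in both, at 0.87 (adjusted p = 0.026) and 1.53 (adjusted p = 0.00031). Between the constructs H2-Eb1 rose (0.28 ± 0.07) and the class II regulator Rfx5 fell (-0.39 ± 0.08), and without PAX5-WT replicate 7 the H2-Eb1 difference was 0.24 (adjusted p = 0.0537). The interferon list was mixed, with 2 of 24 higher (Irf1 0.31 and Psmb8 0.16) and 3 lower (Mx1 -0.65, Gbp3 -0.47 and Irf7 -0.32, which lost its call in 15 of 20 fits without 1 array). Irgm1, an interferon-induced GTPase, rose over MIR with both constructs, by 1.22 with PAX5-P80R and 1.05 with PAX5-WT. The cholesterol synthesis and immunoglobulin lists had 0 of 17 and 0 of 5 called in limma, with 1 and 0 genes at an unadjusted p under 0.05. The remaining lists had 2 of 25 higher and 2 lower (chemokine, cytokine and TNF receptors), 2 of 19 higher and 0 lower (MYC family and ribosome biogenesis), 1 of 17 higher and 2 lower (glycolysis and hypoxia), and 1 of 20 higher and 2 lower (p53 and apoptosis). Between the constructs 2.67% of all genes were higher and 3.63% lower.

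Of 15 T cell markers 1 was called, Cd7 (0.32, adjusted p = 0.033, lost in 8 of 20 fits without 1 array), of 13 fibroblast markers 1, Col3a1 (-0.41, adjusted p = 0.013, lost in 2), and of 15 myeloid and 9 erythroid markers 0, with 4 and 1 at an unadjusted p under 0.05. The log2 of the summed signal of the T cell list lay between 10.32 and 10.47 with PAX5-P80R and between 10.17 and 10.26 with PAX5-WT, ranges that did not overlap. With MIR it lay between 10.11 and 10.43, a range that overlapped both. The log2 sum of the myeloid list lay between 8.34 and 8.52 with PAX5-P80R and 8.25 and 8.50 with PAX5-WT. That of the fibroblast list lay between 7.85 and 8.05 with PAX5-P80R and 7.86 and 8.08 with PAX5-WT. The erythroid list lay between 12.73 and 12.86 with PAX5-P80R and 12.62 and 12.75 with PAX5-WT. These arrays give no marker at 0, since every probe set has a positive value, and fewer cells of a type and less RNA per cell cannot be told apart. The part of these levels in the results was not tested.

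**Figure D3:**
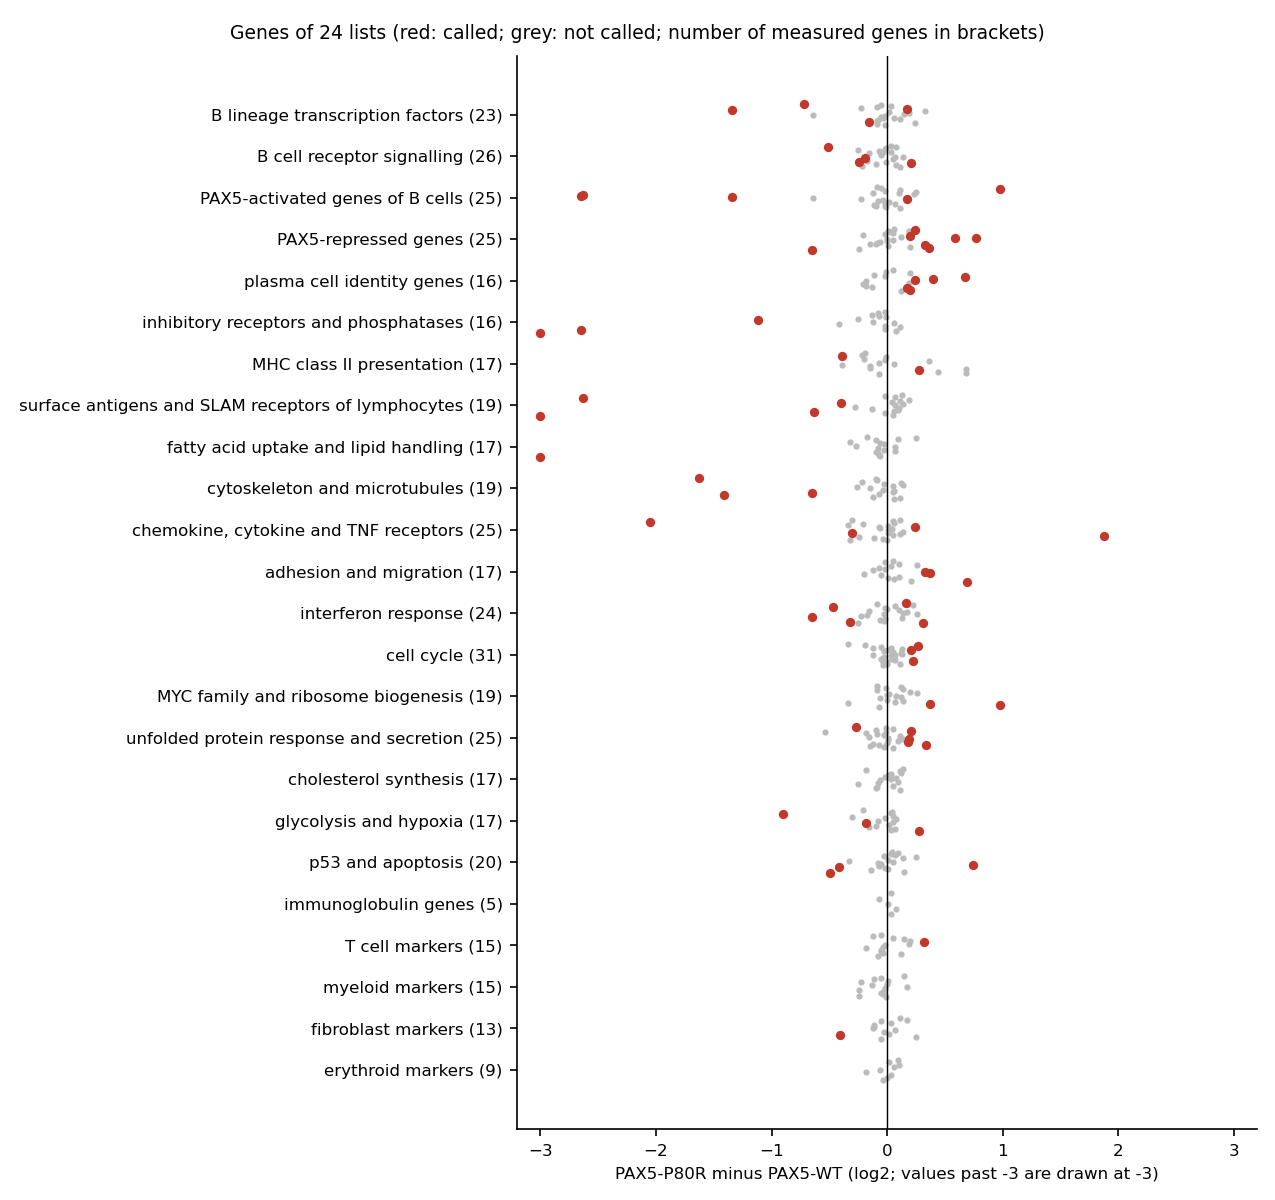
PAX5-P80R minus PAX5-WT (x axis, log2) for each measured gene of 24 lists (y axis), with called genes in red and the others in grey, and values past -3 drawn at -3. The 5 called plasma cell genes lie above 0, the 3 called inhibitory receptors lie below 0, and most genes of every list lie near 0.

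The difference between PAX5-P80R and PAX5-WT depended on the RNA isolation batch at 313 genes (1.83%) by a test of the batch by group term, a count that leaving out 1 array lowered to 170 (without PAX5-P80R replicate 4), 202 (without PAX5-WT replicate 3) and 163 (without PAX5-WT replicate 6). Within isolation batch 1 alone 488 genes were called (2.85%), 262 higher (1.53%) and 226 lower (1.32%), and within isolation batch 2 alone 737 (4.31%), 242 higher (1.42%) and 495 lower (2.90%). Of these, 147 were called in both with the same sign (30.1% of batch 1 calls and 19.9% of batch 2 calls) and 7 with opposite signs. Of the 226 genes lower in isolation batch 1, 86 were called lower in isolation batch 2 and 3 higher, where 2.90% of all genes were lower. Of the 262 genes higher in isolation batch 1, 61 were called higher in isolation batch 2 and 4 lower, where 1.42% of all genes were higher. The 421 genes that PAX5-WT raised over MIR in isolation batch 1 had median effects over MIR in isolation batch 2 of 0.13 with PAX5-P80R and 0.29 with PAX5-WT, and the 151 genes raised in isolation batch 2 had 0.21 with PAX5-P80R and 0.61 with PAX5-WT in isolation batch 1. The genes lowered by PAX5-WT in isolation batch 1, 389 in number, had medians in isolation batch 2 of -0.18 with PAX5-P80R and -0.24 with PAX5-WT, and the 78 lowered in isolation batch 2 had -0.19 with PAX5-P80R and -0.55 with PAX5-WT in isolation batch 1. Among the 346 lost genes the sign of the difference was the same in both batches at all 346, and among the 257 gained genes at 256, though the pooled call that placed them used both batches.

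**Figure D4:**
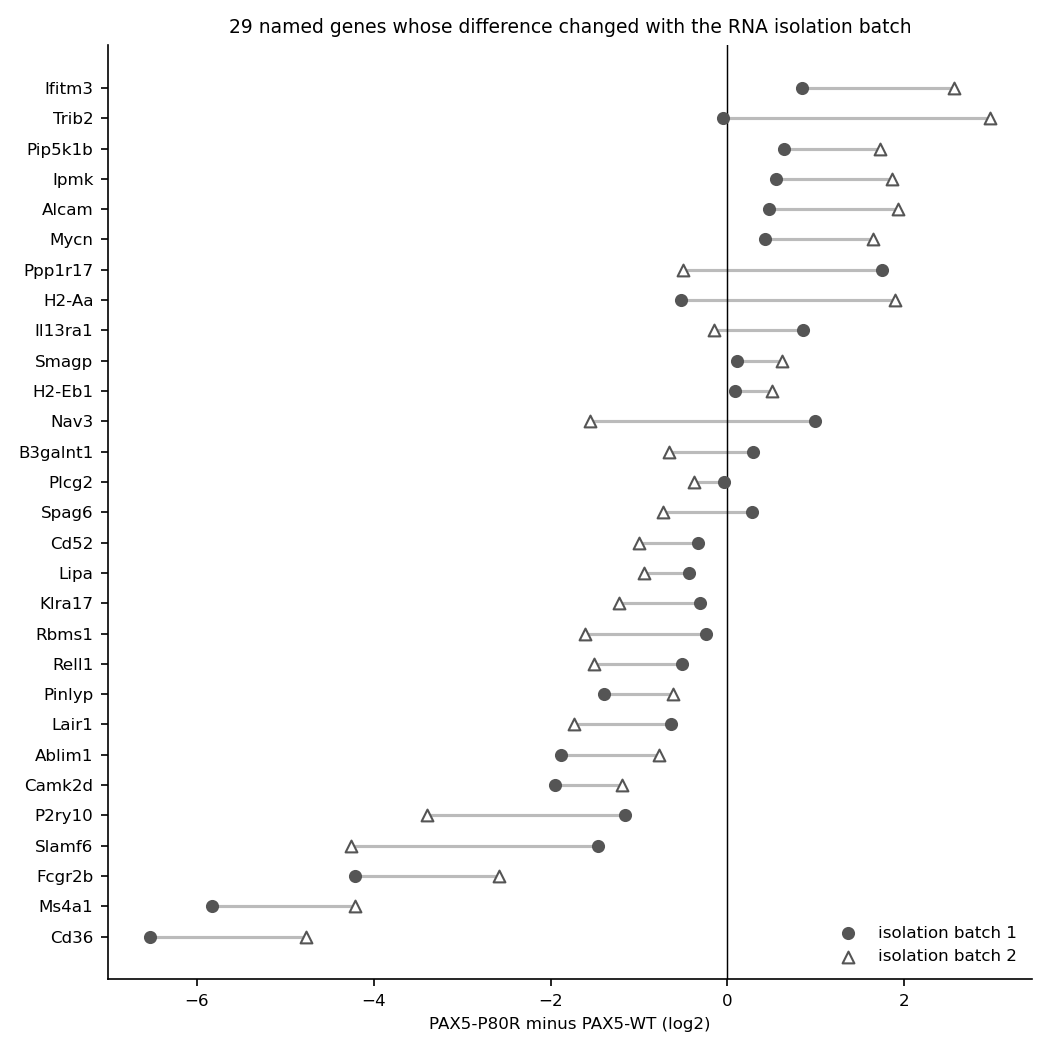
PAX5-P80R minus PAX5-WT (x axis, log2) in isolation batch 1 (filled circles) and isolation batch 2 (open triangles) for the 29 named genes (y axis) whose difference depended on the batch. Trib2 and H2-Aa differ upward in isolation batch 2 only, Nav3 and Ppp1r17 upward in isolation batch 1 only, and Cd36, Ms4a1 and Fcgr2b are negative in both.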

How the data were processed

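Gene expression was measured in 40 samples of total RNA on Affymetrix mouse arrays, labelled as biotin cRNA. The authors deposited 1 table of log2 values for 45141 probe sets, made with RMA per the submitters' processing notes, with the software and version not given in the sources used here. No depth applies to arrays, whose number sets the precision. Of the probe sets 28898 carry 1 gene, 551 several and 15692 none in the platform annotation. Each gene was read from its brightest probe set, by the average of the 40 arrays, which gave 17097 genes. No 2 arrays held identical values (closest correlation 0.9969).

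The deposited log2 values were fitted over all 40 arrays with limma 3.58.1 (statmod 1.5.0, R 4.3.3), with group, plate and RNA isolation batch as terms, moderated errors and Benjamini-Hochberg adjustment over all genes, and genes were called at an adjusted p under 0.05. Because PAX5-P80R was on plate 2 only, its plate term rests on the other groups. Values per array are as deposited, while differences carry the batch terms and so can depart from the difference of the group means. Batch-specific differences come from a fit with group by isolation batch, except where a fit of 1 batch's arrays is named. Non-overlap and levels use single arrays. The calls were tested on simulated data for PAX5-P80R against PAX5-WT, with 200 of 17097 genes changed. The fit recovered 36% of 50 genes changed 1.2-fold, 90% of 50 changed 1.5-fold and 100% of those changed 2-fold or 4-fold, and called 8 unchanged genes. The simulated errors were independent between arrays, with no difference that depended on the isolation batch. The real arrays had such differences, so these rates do not cover them.

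Genes were named by these rules: up to 15 rises and 15 falls of the largest size, up to 8 genes in each class by size, up to 4 called genes in each of 24 lists, the 6 with the smallest adjusted p of the batch term, and Pax5 and Cd79a. Cell type markers and lists came from textbook knowledge, and 415 of 477 listed genes were measured, 10 of them found through a synonym. Other list members appear as examples, chosen after their values were seen. The comparison and the lists were chosen with earlier results of these data known. Some items are not reported here. Alternatives covered the batch terms, the arrays fitted, the scaling, the probe set rule, a filter on low genes, the error model and leaving out single arrays.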

Additional observations from a re-analysis of the deposited data

Results flagged for a closer look

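In 6 of 208 groups of arrays tested over the named genes, 1 array stood apart from the rest of its group by Dixon's test, and chance marks about 1 in 20 groups. Among the PAX5-P80R arrays, Notch1 was 7.00 in replicate 3 against 7.26 to 7.36 in the others, Cd180 was 3.83 in replicate 1 against 4.00 to 4.07, and Pdia4 was 11.09 in replicate 1 against 10.84 to 10.92. Among the PAX5-WT arrays, Rell1 was 6.87 in replicate 1 against 7.26 to 7.55, Plcg2 was 10.63 in replicate 6 against 10.36 to 10.47, and Gbp3 was 4.50 in replicate 7 against 3.65 to 3.85.

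For 29 of the 104 named genes the PAX5-P80R minus PAX5-WT difference itself differed between the RNA isolation batches, by the batch by group term in limma at an adjusted p under 0.05. The values given next are the difference in isolation batch 2 less that in isolation batch 1, in log2 units. Among genes higher with PAX5-P80R than with PAX5-WT over both batches, it was 3.02 for Trib2, 1.72 for Ifitm3, 1.47 for Alcam, 1.31 for Ipmk, 1.22 for Mycn, 1.10 for Pip5k1b, 0.52 for Smagp and 0.42 for H2-Eb1. Apart from Trib2, at -0.05 in isolation batch 1, these 8 genes were higher in both batches and more so in isolation batch 2.

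Among genes lower with PAX5-P80R, the fall was smaller in isolation batch 2 for Cd36 (1.77), Fcgr2b (1.63), Ms4a1 (1.62), Ablim1 (1.12), Pinlyp (0.78) and Camk2d (0.76). It was larger there for Slamf6 (-2.80), P2ry10 (-2.24), Rbms1 (-1.36), Lair1 (-1.09), Rell1 (-1.0), Klra17 (-0.92), Cd52 (-0.67), Lipa (-0.51) and Plcg2 (-0.35). All 15 of these differences were below 0 in both batches. Genes not called over both batches included Nav3 (-2.54), Ppp1r17 (-2.25), Il13ra1 (-1.01), Spag6 (-1.0), B3galnt1 (-0.94) and H2-Aa (2.43), and for Nav3, Ppp1r17, Il13ra1, Spag6, B3galnt1 and H2-Aa the difference had opposite signs in the batches. The isolation batches also differ in the transductions they hold, and a part of either in these values was not tested.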

How the results depend on the processing

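Against 1078 genes called between PAX5-P80R and PAX5-WT, 697 were called with no batch terms, 478 with plate 2 arrays only, 488 and 737 in isolation batches 1 and 2, 275 with only the PAX5-P80R and PAX5-WT arrays, and 1643 with 3 runs of transduction numbers in place of isolation batch. At least 1.5-fold were 118, and 254 were called when PAX5-P80R minus PAX5-Δ2-6 was set against PAX5-WT minus MIR. The sign was the same at 1067 or more of the 1078 genes in each alternative, and at all 989 that a filter on low genes left. These genes were chosen on the same arrays, so that agreement was largely fixed in advance. Fewer were called again in the same direction. They were 334 in isolation batch 1, 442 in isolation batch 2, 255 with only the PAX5-P80R and PAX5-WT arrays and 189 with the replicate block. PAX5-P80R against MIR called 807, and 198 on plate 2, 156 in isolation batch 1 and 1714 with 3 runs. PAX5-WT against MIR called 1099, and 696 with no batch terms, 225 on plate 2 and 229 in isolation batch 2.

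The classes moved with those calls. With no batch terms 138 genes were kept, 213 lost, 4 reversed and 7 enhanced. On plate 2 arrays 34 were kept, 104 lost, 10 reduced, 0 reversed, 2 enhanced and 77 gained. Isolation batch 1 gave 55 kept, 13 reduced, 5 reversed and 37 gained, and isolation batch 2 gave 70 kept, 64 lost, 13 reduced and 1 reversed. In isolation batch 1 alone 42 of the 212 kept, 149 of the 346 lost and 23 of the 257 gained genes held their class. In isolation batch 2 alone 47 kept, 56 lost and 135 gained genes did. Of the 14 reversed genes 1 held its class in isolation batch 1 alone, 0 in isolation batch 2 alone and 0 on plate 2 arrays. The 3 runs gave 344 kept, 34 reversed, 59 enhanced and 766 gained. Without genes of low signal 24 were reversed and 25 enhanced, and trend and robust settings gave 24 enhanced. Centring gave 596 higher and 473 lower genes for PAX5-P80R against PAX5-WT (457 and 621 as reported), and 445 and 713 for PAX5-WT against MIR (613 and 486 as reported). In isolation batch 1 alone Trib2, called over both batches, stood at -0.0817, and Nav3 and H2-Aa, not called over both, were called the other way at 1.15 and -0.456. Uncalled differences also changed sign there, as for Spag6, B3galnt1 and Ets1. The cause was not tested.

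With the replicate block, 202 genes were called between PAX5-P80R and PAX5-WT and 173 between PAX5-P80R and MIR, with 72 kept, 103 lost, 7 reduced, 1 reversed, 3 enhanced and 40 gained. The numbers do not pair the arrays: same-numbered arrays correlated between -0.163 and 0.022 in their deviations from group means, and none correlated best with its own number.

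Leaving out 1 array at a time gave 797 to 1120 calls for PAX5-P80R against PAX5-WT, 555 to 846 for PAX5-P80R against MIR and 880 to 1112 for PAX5-WT against MIR, with 158 to 216 kept, 273 to 338 lost, 22 to 29 reduced, 4 to 17 reversed, 8 to 17 enhanced, 172 to 305 gained, and 163 to 302 genes by batch. The reversed class had 4 genes without MIR replicate 7, 6 without PAX5-P80R replicate 4, 5 or 6, 8 without MIR replicate 3 or 6 and 9 without MIR replicate 1 or 4, and the enhanced class had 8 without PAX5-WT replicate 1. Of the 92 named genes called, 22 lost the call without some single array and 70 did not, while 50 lost it with the replicate block, 46 as the difference of PAX5-P80R minus PAX5-Δ2-6 and PAX5-WT minus MIR, 42 with only the PAX5-P80R and PAX5-WT arrays, 28 in isolation batch 2, 27 on plate 2 arrays, and 36 in isolation batch 1, where Trib2 also changed sign. The number of arrays, and the transduction numbers that the 2 constructs do not share, limit what these values can show.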
